A study of Mus musculus with 416 samples.

Results

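Chromosome 11, the mouse autosome with the second highest density of protein-coding genes in these data, was described by the replication state of its 50-kb bins in single blastomeres. It was chosen on measured values of the same cells. At the 8-cell stage it had the lowest mean siRif1 minus siCont shift of the autosomes. It also had the lowest Pearson correlation between the siRif1 and siCont profiles. Those 2 values, and other 8-cell comparisons of the siRNAs that restate them, are a description only. Members were all bins of chromosome 11 with at least 10 measured cells in each of the 6 groups. These were 2380 of the 2442 listed bins and 5.17% of the 46015 used bins of autosomes 1 to 19. The threshold split the chromosome cleanly. The 62 bins left out each had 0 measured cells in at least 1 group and covered the first 3.1 Mb, whereas no used bin had fewer than 44 in a group.

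The embryos had the genotype (C57BL/6J xCBA) x DBA/2J in all groups. At the zygote stage they had received 20 µM of siControl (siCont here), a control siRNA, or 20 µM of siRif1, an siRNA to Rif1, by injection at 17 to 18 hours after hCG, the hormone given to time ovulation, and were grown to the 4-cell, 8-cell or morula stage. Each blastomere was amplified and sequenced on its own, over a range of S phase times. States were given for 49 siCont and 51 siRif1 cells of 4-cell embryos, 60 and 50 of 8-cell embryos and 44 and 45 of morulae. The labels tie no cell to an embryo, so each group counts as 1 sample, no test was possible, and every difference below is described by its size. Rif1 mRNA or protein was not analysed here, so the depletion itself was not checked.

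Genomic DNA is copied in a set order during S phase, in domains that replicate together, and in most cell types gene-rich, transcribed DNA is copied early and gene-poor DNA late. RIF1 is a chromatin protein that recruits protein phosphatase 1 and counteracts the kinase that fires origins. It is known for keeping the order of replication in many cell types, where its loss can blur the contrast between early and late domains.

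A deposited value of 1 was read as replicated and 0 as not replicated. The replicated share of a bin is the percent of measured cells of a group in state 1, so a bin copied earlier in S phase has a higher share. The groups were not equally far into S phase, so the group's mean over its used bins was subtracted from every share to give a centred share. Subtracting the centred share of siCont from that of siRif1 gives the shift of a bin, in percentage points. Below 0 the bin is called later, being replicated in relatively fewer cells of the siRif1 group, and above 0 it is called earlier. Cells were spread over S phase in all groups, with median replicated percents of the other 18 autosomes of 42.2, 47.9 and 47.1 in siCont and 50.9, 43.3 and 46.9 in siRif1 at the 3 stages. At the 8-cell stage no siRif1 cell lay above 66.1%, against a maximum of 97.3% in siCont. All of chromosome 11 had a state in every cell but 1 siRif1 4-cell cell and 1 siRif1 8-cell cell, in which the whole chromosome was missing.

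Sequence at the 2 ends of the 8-cell order is shown first, since it differs in how gene-dense the DNA around it is. The 3 windows of 1 Mb with the lowest 8-cell shift, from 98, 115 and 51 Mb, held 36, 44 and 19 protein-coding genes, and the 3 with the highest, from 28, 42 and 39 Mb, held 2, 3 and 0. Promoters of 1 gene from each window that had an entry are printed from RefSeq, build GRCm38.p6, 5′ to 3′ on the gene's own strand, from 250 bases before to 50 bases after the start, with each CG dinucleotide (searched as CG, which reads the same on both strands) in capitals. Cdk12, Grb2 and Col23a1 come from windows with the lowest shift, and Ccdc85a and Gabrb2 from windows with the highest.
Cdk12 (chr11:98203055-98203354, + strand): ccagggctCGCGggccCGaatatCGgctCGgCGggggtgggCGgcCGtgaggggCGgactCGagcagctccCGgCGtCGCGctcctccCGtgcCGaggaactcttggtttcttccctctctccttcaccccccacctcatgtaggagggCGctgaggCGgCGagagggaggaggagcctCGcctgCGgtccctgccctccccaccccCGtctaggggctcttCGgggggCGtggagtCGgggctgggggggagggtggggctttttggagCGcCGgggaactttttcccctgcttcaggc
Grb2 (chr11:115699879-115700178, - strand): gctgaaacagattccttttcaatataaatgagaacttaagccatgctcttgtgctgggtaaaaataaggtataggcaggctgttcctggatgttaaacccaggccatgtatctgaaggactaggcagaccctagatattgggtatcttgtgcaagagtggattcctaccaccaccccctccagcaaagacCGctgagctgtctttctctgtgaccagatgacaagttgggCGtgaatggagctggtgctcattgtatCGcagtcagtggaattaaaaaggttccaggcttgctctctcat
Col23a1 (chr11:51289670-51289969, + strand): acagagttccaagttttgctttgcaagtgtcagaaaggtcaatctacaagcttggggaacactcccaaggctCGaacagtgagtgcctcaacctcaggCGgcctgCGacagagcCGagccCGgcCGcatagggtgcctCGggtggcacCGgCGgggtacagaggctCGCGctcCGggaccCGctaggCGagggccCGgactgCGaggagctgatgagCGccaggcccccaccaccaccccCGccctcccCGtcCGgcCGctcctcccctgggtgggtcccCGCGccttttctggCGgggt
Ccdc85a (chr11:28584275-28584574, - strand): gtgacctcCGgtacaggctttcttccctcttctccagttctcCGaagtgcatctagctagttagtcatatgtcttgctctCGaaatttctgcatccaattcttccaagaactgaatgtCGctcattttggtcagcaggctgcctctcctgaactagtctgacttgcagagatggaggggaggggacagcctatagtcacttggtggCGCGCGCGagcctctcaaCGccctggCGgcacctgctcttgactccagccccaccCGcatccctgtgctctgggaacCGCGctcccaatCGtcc
Gabrb2 (chr11:42420190-42420489, + strand): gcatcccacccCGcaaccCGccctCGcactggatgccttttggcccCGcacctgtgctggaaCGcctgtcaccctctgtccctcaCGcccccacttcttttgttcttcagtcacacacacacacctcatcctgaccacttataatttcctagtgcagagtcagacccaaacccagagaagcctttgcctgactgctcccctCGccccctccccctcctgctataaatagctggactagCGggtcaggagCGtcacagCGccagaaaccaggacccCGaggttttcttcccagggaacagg
These promoters held 27, 3, 24, 14 and 11 CG in 300 bases. Both ends of the order thus include promoters with many CG, and Grb2, from a window among the most shifted toward later, has few. All 67 promoters in the table from the 3 lowest windows had a median of 19 CG, and 74.6% had at least 10. The 4 from the 3 highest windows had a median of 11, and 75% had at least 10. Grb2 thus lies below the median of its end. Promoters of 1271 of the 1609 chromosome 11 genes were in the table. The 1079 in early domains of the chromosome (defined below) had a median of 19 CG and 70.8% had at least 10. The 192 in late domains had a median of 3, and 24.5% had at least 10. Over 14194 promoters of the 17 other autosomes in the table the median was 15 and 61.4% had at least 10. At least 1 CG was present in 96.9% of chromosome 11 promoters and in 95.6% of the others. A CG count describes these 300 bases and says nothing about methylation, which was not measured.

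In control embryos chromosome 11 was among the earliest autosomes at every stage. Its mean replicated share was 54.3% at the 4-cell stage, 58.4% at the 8-cell stage and 60.2% at the morula stage, where the mean over all autosomes was 46.5, 49.2 and 49.4%. That placed it highest, second and highest of 19; only chromosome 19 stood above it, at the 8-cell stage (61.1%). In siRif1 embryos the chromosome's mean share was 56.8, 43.9 and 57.5%, against 50.5, 43.02 and 49.98% over all autosomes. It was second of 19 at the 4-cell and morula stages but 8th at the 8-cell stage, where its lead over the autosomal mean was 0.879 points, against 9.20 in siCont.

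The mean shift of the chromosome was -1.44 points at the 4-cell stage, -8.32 at the 8-cell stage and -3.36 at the morula stage. The 8-cell value lay outside the range of the other 18 autosomes, which was -4.10 (chromosome 19) to 4.53 (chromosome 6), as its choice requires. The stages that did not enter the choice gave smaller values inside the range of the others: the 4-cell value was the 6th lowest of 19, in a range of -4.03 to 6.75, and the morula value was second lowest, after chromosome 9 at -3.73. The 8-cell value was as large with cells weighted equally over classes of percent replicated at -8.43 and with only cells between 20 and 80% replicated at -8.05. At the 4-cell stage the weighted value was 0.534, so the sign there is not settled. On a scale of percentile ranks the morula value was -0.546.

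**Figure D1:**
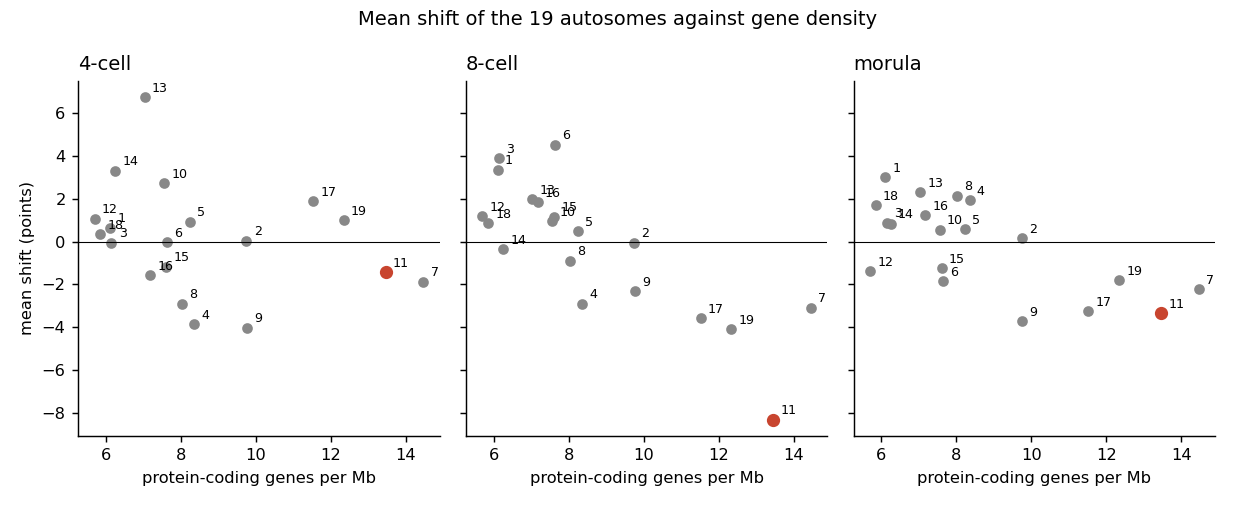
Mean shift (y axis, percentage points) of each of the 19 autosomes against its protein-coding genes per Mb (x axis) at the 3 stages; numbers are chromosomes and chromosome 11 is red. Chromosome 11, with 13.5 genes per Mb, lies at -1.44, -8.32 and -3.36, and in the 8-cell panel it is below all other autosomes.

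Gene density and shift went together across the autosomes at the 8-cell and morula stages. Chromosome 11 held 1602 protein-coding genes with a midpoint in a used bin, or 13.5 per Mb; chromosome 7 held 14.5 and the median of the other 18 was 7.62. Over 19 autosomes, which share the same cells, Pearson's r of density with mean shift was -0.281, -0.809 and -0.672 at the 3 stages, and without chromosome 11 it was -0.245, -0.756 and -0.610. The denser chromosome 7 had an 8-cell shift of -3.09.

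Counted bin by bin, later bins prevailed on chromosome 11 at each stage, and most at the 8-cell stage. A shift below 0 was found in 1370 of 2380 bins (57.6%) at the 4-cell stage, where 50.2% of all used bins were below 0. The 8-cell count was 1761 bins (74.0%) against 47.9% of all used bins, and at the morula stage 1549 (65.1%) against 50.9%. The 8-cell and morula percents were the highest of the 19 autosomes. The 8-cell rank restates the mean shift on which the chromosome was chosen. Bins at least 30 points later numbered 0 at the 4-cell stage (0.0435% of all used bins), 117 or 4.92% at the 8-cell stage (1.06% of all used bins) and 6 or 0.252% at the morula stage (0.461%). With cells weighted equally over S phase classes, 233 bins were at least 30 points later at the 8-cell stage, and at the morula stage 98 were later and 11 earlier. These weights rest on classes as small as 1 siCont and 2 siRif1 cells at the morula stage. No share of all used bins is given for the weighted counts, so they are not read as a result about chromosome 11. The 117 bins were 24.1% of the 486 such bins of the genome, and chromosome 17, with 88 bins or 5.03%, had a slightly higher percent. Bins at least 30 points earlier numbered 0, 0 and 20 at the 3 stages, where 0.0196, 0.224 and 0.608% of all used bins were called.

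Profiles of the 6 groups followed the same peaks and valleys, but at the 8-cell stage the siRif1 profile ran below the control over long stretches. Over the 2380 bins, which share cells, the Pearson correlation of siRif1 with siCont was 0.806, 0.662 and 0.884 at the 3 stages. The other autosomes ranged from 0.698 to 0.861 at the 8-cell stage. By Spearman correlation the 8-cell value was 0.684, and chromosome 19 was lower at 0.624. The spread of shares over bins also differed. The SD over bins in siCont was 14.7, 18.7 and 24.4 points at the 3 stages, whereas in siRif1 it was 13.4, 13.9 and 16.5. The siRif1 SD divided by the siCont SD was 0.911, 0.744 and 0.674, and the 4-cell value was the lowest of 19 autosomes (others 0.927 to 1.19). The 8-cell and morula values were close to the medians of the other autosomes, 0.742 and 0.673 (ranges 0.605 to 0.830 and 0.615 to 0.711). At those stages the smaller spread was thus not particular to chromosome 11.

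**Figure D2:**
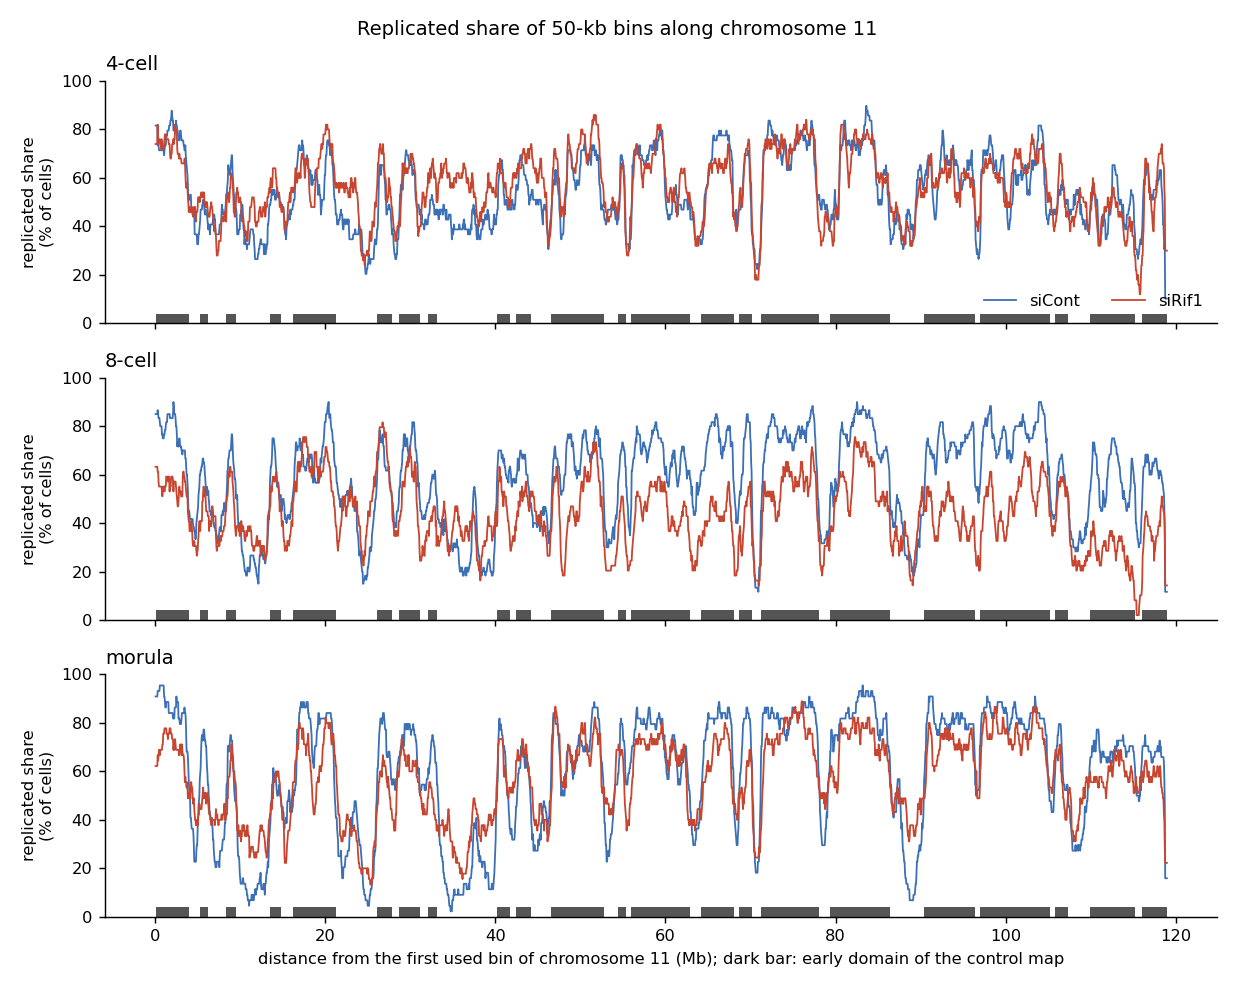
Replicated share (y axis, percent of measured cells in state 1) of the 2380 used bins along chromosome 11 (x axis, Mb from the first used bin) in siCont (blue) and siRif1 (red) cells; dark bars mark early domains of the control map. At the 8-cell stage the red line lies below the blue one over most of the right part, where means of the telomere side were 42.3% in siRif1 and 63.3% in siCont. Shares are not centred, and the 8-cell mean over all autosomes was 43.02% in siRif1 and 49.2% in siCont.

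To describe domains, the mean centred share of the 3 control groups was split into runs of at least 10 bins (500 kb) above 0 (early) or below 0 (late), shorter runs being merged. This gave 43 domains on chromosome 11. The 22 early domains covered 79.5 Mb (66.8% of the used length) with 17.3 genes per Mb, and the 21 late ones covered 39.5 Mb with 5.77 genes per Mb. Early domains had a mean share of 61.2, 69.2 and 74.9% in siCont at the 3 stages and 61.9, 49.2 and 66.5% in siRif1. Late domains had 40.5, 36.7 and 30.7% in siCont and 46.4, 33.2 and 39.3% in siRif1. The gap between early and late domains was thus 20.7, 32.4 and 44.2 points in siCont, larger at each later stage, and 15.5, 16.03 and 27.2 points in siRif1. The map was made from the control cells, which favours a larger gap in them.

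The 8-cell shift was largest in early domains. Their mean shift was -3.18, -13.8 and -9.02 points at the 3 stages, with 16, 20 and 20 of the 22 below 0. Late domains had mean shifts of 2.05, 2.63 and 8.04, with 12, 12 and 6 of the 21 below 0. In 8-cell embryos early domains were later and late domains near 0 on average, and at the morula stage the classes had shifts of near equal size and opposite sign. Of the 117 bins at least 30 points later at the 8-cell stage, 116 lay in early domains and 1 in a late one. All 20 bins at least 30 points earlier at the morula stage lay in late domains. Early domains held 66.8% of the used bins. The map includes the control cells whose shares are subtracted in the shift. This favours later bins in early domains and earlier bins in late ones, so these counts are a description only.

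The contrast was also measured with classes that did not use the controls of the stage itself: bins of the 19 autosomes were ranked by control timing at the other 2 stages and split into 5 equal classes. The mean shift of the latest class minus that of the earliest class on chromosome 11 was 10.4 points at the 4-cell stage, 30.1 at the 8-cell stage and 22.2 at the morula stage. The first 2 were the highest of 19 autosomes, the others ranging from -4.60 to 4.94 and from 13.8 to 25.9, and the morula value was 6th (others 15.3 to 31.9). With cells weighted equally over S phase classes the values were 4.05, 30.4 and 12.4. The 4-cell value was still the highest of 19 (others up to 1.92), but chromosome 19 was above it at the 8-cell stage, at 31.4. On percentile ranks they were 20.4, 32.96 and 2.32.

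When each group was given its own map, the early part of the chromosome was smaller in siRif1 at the 8-cell stage than in any other group. Early domains covered 68.7, 69.6 and 69.9% of the used length in siCont and 67.5, 47.6 and 66.1% in siRif1. Between siCont and siRif1 maps at the 8-cell stage 29.4 Mb went from early to late and 3.20 Mb from late to early. Of all its bins 72.7% kept their class, the lowest of 19 autosomes (others 75.9 to 90.5%). This rank restates the choice of the chromosome, which used the correlation of the same 2 profiles. At the 4-cell and morula stages 79.6 and 90.8% of bins kept their class. Within siRif1 embryos 27.6 Mb went from early to late between the 4-cell and 8-cell stages, and 29 Mb went from late to early between the 8-cell and morula stages. The mean centred share of chromosome 11 in siRif1 changed by -5.44 points over the first step, the lowest of 19 (others -3.59 to 2.98), and by 6.62 over the second, the highest (others -5.26 to 4.39). In siCont the same steps gave 1.44 and 1.66. Each of these comparisons over stages includes the siRif1 8-cell group.

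**Figure D3:**
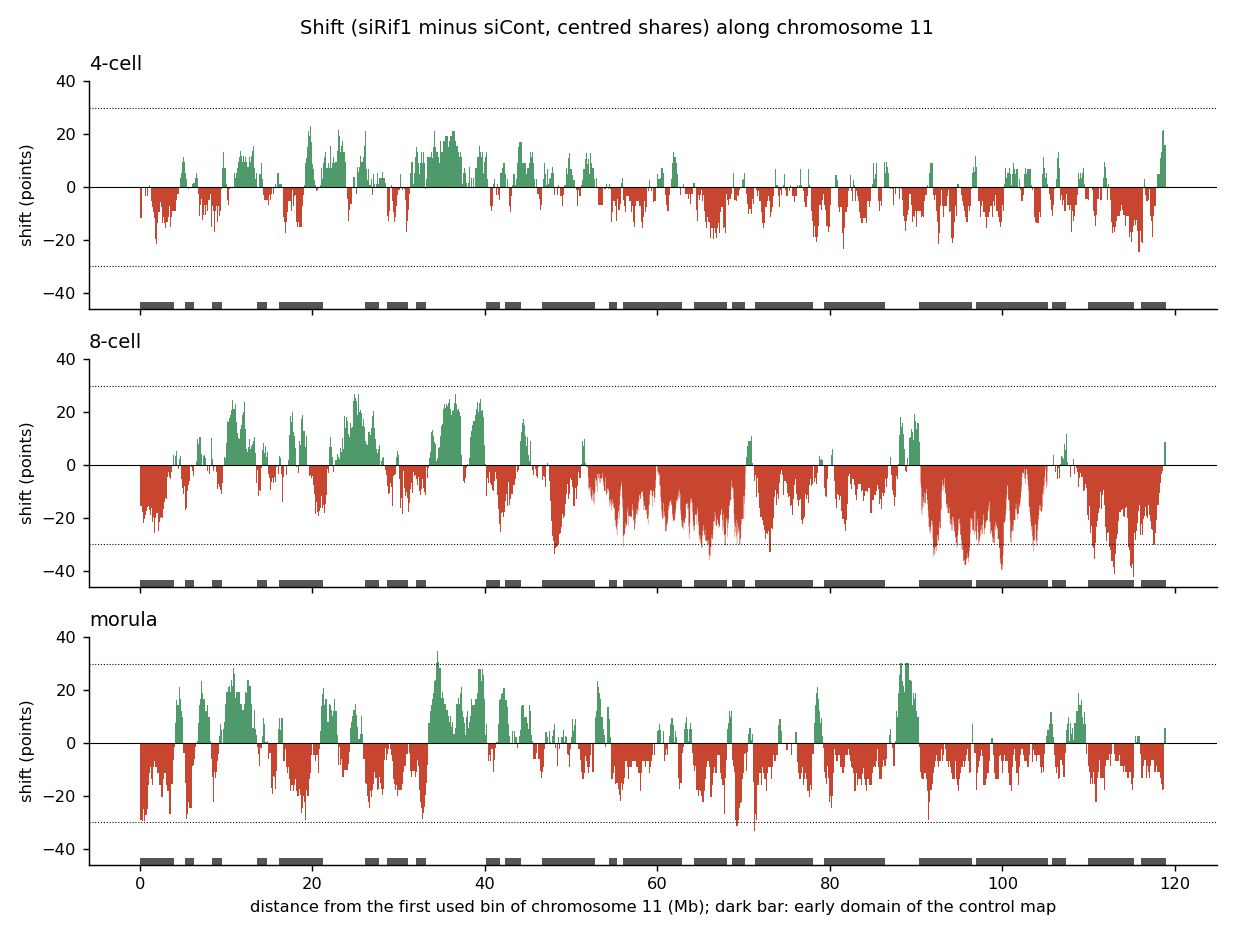
Shift (y axis, percentage points, siRif1 minus siCont of centred shares) of each used bin along chromosome 11 (x axis, Mb from the first used bin); red is later, green is earlier, dotted lines mark 30 points and dark bars early domains. At the 8-cell stage the 117 bins past the lower line cluster right of the middle, and green peaks lie in late domains of the left part.

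The 8-cell shift was concentrated on the telomere side. Split into 2 sets of 1190 bins at 62.6 Mb, the centromere side (8.50 genes per Mb) had mean shifts of 1.69, -1.79 and -0.907 points at the 3 stages and the telomere side (18.4 genes per Mb) had -4.57, -14.9 and -5.81. In shares, the telomere side went from 63.3% in siCont to 42.3% in siRif1 at the 8-cell stage and the centromere side from 53.5 to 45.6%. Shares are not centred, and the mean over all autosomes was 49.2% in siCont and 43.02% in siRif1. Of the 117 bins at least 30 points later, 106 were on the telomere side. Telomere side minus centromere side was -13.1 points at the 8-cell stage, the lowest of 19 autosomes split the same way (others -11.8 to 15.01, with 13 of 18 below 0), and -6.26 and -4.90 at the 4-cell and morula stages (rank 2 and rank 3 from the lowest).

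The sides also differed within each domain class at the 8-cell stage. Early domains made up 79.3% of the telomere side and 54.3% of the centromere side. Within early domains the 8-cell shift was -17.6 on the telomere side and -8.08 on the centromere side, and within late domains -4.14 and 5.69. At the morula stage early domains had -9.43 and -8.42, and late domains 8.09 and 8.02, so the sides were nearly alike there within each class.

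In 10-Mb segments the 8-cell shift changed sign along the chromosome. It was -9.75 points in the first segment, then 3.74, 5.68, 2.71 and 0.930 in the 4 segments from 10 to 50 Mb. From 50 Mb to the end it lay between -9.29 (80 to 90 Mb) and -18.6 (60 to 70 Mb). The segment from 110 Mb had the lowest siRif1 share, 27.7% against 51.6% in siCont, and held 37 of the bins at least 30 points later; the one from 90 Mb held 32.

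Among the 3 longest early domains, that from 100 to 108.3 Mb (191 genes, the longest being Prkca, a protein kinase C, Tanc2, a synaptic scaffold, and Pitpnc1, a lipid transfer protein) had shares of 61.9, 76.7 and 81.8% in siCont and 63.2, 50.6 and 74.99% in siRif1. Its shifts were -2.57, -19.9 and -7.38. More than 50% of the domain was replicated in 49 of 60 siCont cells (81.7%, exact 95% interval 69.6 to 90.5) and in 26 of 49 siRif1 cells (53.1%, 38.3 to 67.5) at the 8-cell stage. Intervals here and below cover counting error only and do not compare the conditions, since each group is 1 sample. Counts of cells, like shares, are not centred. The domain from 82.4 to 89.55 Mb (with Bcas3, Msi2, an RNA-binding protein of stem cells, and Acaca, acetyl-CoA carboxylase) had shifts of -4.86, -10.6 and -11.2. That from 59.05 to 66 Mb (with Dnah9, an axonemal dynein, Specc1 and Arhgap44) had -2.61, -16.1 and -5.22. All of these early domains were below 0 at each stage.

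The 3 longest late domains had shifts of the other sign. The one from 36.3 to 43.25 Mb held 10 genes, the longest being Tenm2, a teneurin of synapses, Atp10b, a lipid flippase, and Gabrb2, a GABA-A receptor subunit. Its shares were 41.3, 29.4 and 18.1% in siCont and 56.7, 35.97 and 33.8% in siRif1, and its shifts 11.5, 12.7 and 15.2. More than 50% of it was replicated in 9 of 60 siCont cells at the 8-cell stage and in 17 of 49 of siRif1, and in 3 of 44 and 13 of 45 at the morula stage. The domain from 24.4 to 29.15 Mb (with Ccdc85a, Vrk2 and Fancl, a ubiquitin ligase of the Fanconi anaemia pathway) had shifts of 7.38, 9.75 and 3.88. The domain from 12.6 to 16.6 Mb, with only 3 genes (Vstm2a, Sec61g and Pom121l12), had 6.70, 12.2 and 16.8. These late domains were above 0 at all stages, and all lie on the centromere side.

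The domains with the largest absolute 8-cell shift lay on the telomere side. The early domain from 113 to 118.3 Mb, whose longest genes are Slc39a11, a zinc transporter, Sdk2, a synaptic adhesion protein, and Septin9, a cytoskeletal GTPase, had shares of 47.8, 59.3 and 68.96% in siCont and 44.04, 28.2 and 59.1% in siRif1. Its shifts were -7.65, -25 and -10.5. More than 50% of it was replicated in 35 of 60 siCont cells (58.3%, 44.9 to 70.9) and 9 of 49 siRif1 cells (18.4%, 8.76 to 32.02) at the 8-cell stage. The early domain from 67.3 to 71.15 Mb, with 134 genes (Stx8, Gas7 and Ntn1, the guidance cue netrin 1, the longest), had shifts of -10.9, -24.8 and -13.7.

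Next to the first of these lay the late domain from 118.3 to 119.1 Mb, with Rbfox3, the neuronal splicing factor NeuN, as its longest gene. It had the largest absolute 4-cell shift, and the one from 81.2 to 82.4 Mb, with Asic2, an acid-sensing ion channel, had the next. The Rbfox3 domain had shares of 30.6, 35.6 and 51.8% in siCont and 18.5, 6.12 and 54.2% in siRif1, and shifts of -16.0, -23.3 and 1.82. More than 50% of it was replicated at the 8-cell stage in 19 of 60 siCont cells but 1 of 49 siRif1 cells (2.04%, 0.0517 to 10.8). The morula counts were 22 of 44 and 23 of 45. The Asic2 domain had shifts of -12.0, -0.860 and 10.3. Largest at the morula stage were the early domain from 8.3 to 9.35 Mb, with Tns3, Pkd1l1 and Sun3, at -20.3, and the late domain from 44.85 to 45.45 Mb, which holds no gene midpoint, at 19.4.

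At the scale of 1 Mb, 119 windows were measured. Their median shift was -2.02, -9.34 and -5.80 points at the 3 stages, and 26 windows were at least 20 points later at the 8-cell stage, against 0 at the 4-cell and 2 at the morula stage. At least 20 points earlier were 0, 3 and 5 windows at the 3 stages. No share over windows of the other autosomes is given, so these counts are not read as a result about chromosome 11. The 8-cell count also restates the shift on which the chromosome was chosen. The 10 lowest windows of the 8-cell stage had a median of 27 genes and the 10 highest had 0.

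Shares in the window from 98 Mb, which holds Ikzf3, a lymphoid transcription factor, Cdk12, a kinase of elongating RNA polymerase II, and Fbxl20, an F-box protein, were 62.4, 75.3 and 79.7% in siCont and 60.8, 37.96 and 70.6% in siRif1. Its 8-cell shift was -31.1, the lowest of the chromosome, between -5.46 at the 4-cell and -9.69 at the morula stage. More than 50% of the window was replicated in 46 of 60 siCont cells (76.7%, 63.96 to 86.6) and 18 of 49 siRif1 cells (36.7%, 23.4 to 51.7). In the window from 115 Mb, with Rab37, Grb2, an adaptor of receptor kinase signalling, and Tmem104, shares were 51.7, 69.5 and 66.5% in siCont and 51, 32.9 and 61.4% in siRif1. Its shifts were -4.65, -30.5 and -5.62. The window from 51 Mb, with Col23a1, a transmembrane collagen, Sec24a, a COPII coat subunit, and Jade2, a scaffold of a histone acetyltransferase complex, had shifts of -0.281, -29.1 and -0.400. Its 8-cell shares were 68.2% in siCont and 32.9% in siRif1. All 3 windows were later by about 30 points at the 8-cell stage and by under 10 at the stages before and after.

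The windows highest at the 8-cell stage were gene-poor and lay on the centromere side. That from 28 Mb, with Ccdc85a and Efemp1, a matrix protein, had shares of 27.4, 33.2 and 13.4% in siCont and 37.1, 49.4 and 20.1% in siRif1, and an 8-cell shift of 22.4. The window from 42 Mb, with the GABA-A receptor genes Gabrb2 and Gabra6, had shifts of 10.96, 21.5 and 24.5. The window from 39 Mb, with no gene midpoint, had 18.2, 21.3 and 8.38. In the first of these more than 50% was replicated in 18 of 60 siCont cells at the 8-cell stage and in 23 of 49 of siRif1 (30%, 18.9 to 43.2, and 46.9%, 32.5 to 61.7).

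At the 4-cell stage the lowest windows were those from 69, 118 and 81 Mb, at -16.9, -16.5 and -15.1. The first holds 62 genes, among them Dnah2, an axonemal dynein, Chd3, a chromatin remodeller, and Cntrob, a centriole protein, and was at -26.7 and -12.8 at the later stages. The second holds Rbfox3, Dnah17 and Cyth1 and was at -28.9 at the 8-cell but -3.40 at the morula stage. The third holds Asic2. The highest were those from 39, 38 and 26 Mb, at 18.2, 16.9 and 15.5; the last holds Vrk2 and Fancl and was at -8.18 at the morula stage. In morulae the lowest were those from 3 Mb (with Osbp2, Sfi1, a centrosome protein, and Limk2, a kinase of actin regulation), 72 Mb (with Zzef1, Pitpnm3 and Ankfy1) and 21 Mb (with Wdpcp, a ciliary protein, Vps54 and Peli1), at -27.5, -24.8 and -18.9. In the first of these 42 of 44 siCont and 30 of 45 siRif1 cells had more than 50% replicated (95.5%, 84.5 to 99.4, against 66.7%, 51.05 to 80). The highest were from 37 Mb (no gene midpoint), 91 Mb (Kif2b, a kinesin) and 42 Mb, at 26.7, 25.4 and 24.5.

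Stretches of neighbouring bins at least 30 points later at the 8-cell stage numbered 25, with a median length of 100 kb and a longest of 1000 kb, from 98.35 to 99.35 Mb with 38 genes. The next longest ran over 800 kb from 115.5 Mb and 700 kb from 117.7 Mb, where the lowest bin of the chromosome stood at -42.3. Of the 117 bins, 113 were below 0 at the 4-cell stage (mean shift -9.44) and 111 at the morula stage (-8.99), stages with other cells, where 57.6 and 65.1% of all chromosome 11 bins were below 0. Early domains, which hold 116 of these bins, had mean shifts of -3.18 and -9.02 at those stages. Over all 2380 bins the correlation of the 8-cell with the morula shift was 0.449 (others 0.377 to 0.606), and 56.8% of bins were below 0 at both stages.

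Genes were assigned to the bin of their midpoint. Of the 1602 measured protein-coding genes of chromosome 11, 1123, 1466 and 1387 had a shift below 0 at the 3 stages (70.1, 91.5 and 86.6%), where 59.6, 71.9 and 74.8% of the 19410 measured genes of the 19 autosomes did. The medians were -5.22, -17.8 and -9.02 points on chromosome 11 and -2.32, -7.49 and -8.04 over all autosomes. The lists below were drawn up from gene families and functions on the chromosome. Neighbouring genes share bins, so members of a cluster are not separate measurements, and each list is to be read against the chromosome's own 91.5% and -17.8.

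Genes for growth and division had counts below 0 close to the chromosome's own share at the 8-cell stage. Of 17 genes for replication, repair and mitosis in 17 bins, 16 were below 0, with a median of -24.3. Median shares were 67.3, 76.7 and 79.5% in siCont and 64, 42.9 and 71.1% in siRif1. Recql5, a DNA helicase, was replicated in 32 of 49, 44 of 60 and 30 of 44 siCont cells and in 26 of 50, 15 of 49 and 31 of 45 siRif1 cells, with shifts of -17.2, -36.5 and 0.120. Cdc6, which loads the replicative helicase at origins, was replicated in 47 of 60 siCont (78.3%, 65.8 to 87.9) and 18 of 49 siRif1 cells (36.7%, 23.4 to 51.7) at the 8-cell stage, with shifts of -13.3, -35.4 and -4.58. Of 7 ribosomal protein genes in 7 bins, 6 were below 0 at the 8-cell stage with a median of -17.6. Rpl26 and Rpl23, proteins of the large subunit, stood at -30.2 and -29.5.

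Genes that encode regulators gave similar 8-cell values. All 6 Polycomb genes, which encode subunits of repressive chromatin complexes, were below 0, with a median of -20.8, and Pcgf2 stood at -27.5. Of 19 developmental transcription factors 18 were below 0, with a median of -18.7. Nr1d1, a nuclear receptor of the circadian clock, had the lowest value, -37.8, and was replicated in 46 of 60 cells of siCont and 16 of 49 of siRif1 (76.7%, 63.96 to 86.6, and 32.7%, 19.9 to 47.5). Rara, a retinoic acid receptor, stood at -35.4. The 10 Hoxb genes, which pattern the body axis and lie in 4 bins of 1 early domain, were all below 0 at each stage, with medians of -9.24, -7.42 and -3.39, though with cells weighted over S phase classes the morula median was 20.1. At the 8-cell stage all of them lay above the chromosome's median. Hoxb9 and Hoxb8, in the same bin, stood at -9.46.

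Tissue-specific gene clusters differed among themselves. All 27 type I keratin genes (13 bins), filament proteins of epithelia, were below 0 at the 8-cell stage with a median of -25.4, and Krt222 and Krt24 stood at -34.7 and -32.6. The 23 keratin associated protein genes (8 bins of 1 late domain), proteins of hair, were all above 0 at the 4-cell stage (median 5.51), all below 0 at the 8-cell stage (median -20.3) and split 11 to 12 at the morula stage (median 4.87). Krtap4-13 and Krtap29-1 stood at -26.4 and -25.1 at the 8-cell stage. All 6 lipoxygenase genes (5 bins), which oxidise fatty acids, were below 0 at each stage, with medians of -16.5, -29.1 and -7.96. Aloxe3 was replicated in 51 of 60 8-cell siCont cells and 21 of 49 of siRif1 (85.0%, 73.4 to 92.9, and 42.9%, 28.8 to 57.8) and stood at -36.0, and Alox12b stood at -34.3. The 6 genes of the skeletal myosin heavy chain cluster (5 bins) had an 8-cell median of -21.2, with Myh13 at -24.9 and Myh8 at -23.2.

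Clusters of immune and blood genes were close to 0 or moderately later at the 8-cell stage. Among 11 CC chemokine genes 5 were below 0, with a median of 0.126; Ccl4 stood at -11.3 and Ccl3 at -5.93. The 8 Schlafen genes, growth regulators of lymphoid cells, were split 4 to 4 at the 8-cell stage with a median of 0.160, Slfn14 at 3.87 and Slfn3 at 2.20. At the morula stage all 8 were below 0 with a median of -20.03. In the Th2 cytokine locus 7 of 8 genes were below 0 at the 8-cell stage (median -8.89), with Il5, an eosinophil cytokine, at -13.0 and Rad50, a DNA repair gene, at -10.9. Its morula median was 3.43, and -18.3 with cells weighted over S phase classes. All 7 alpha globin locus genes were below 0 (median -8.34), with Hbq1a at -15.4 and Hba-a1 at -8.34.

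The 4 GABA-A receptor genes, which encode subunits of the inhibitory chloride channel of neurons, were the list with all members above 0 at every stage. Their medians were 7.17, 21.8 and 24.6 points. Gabrb2 was replicated in 19 of 49, 12 of 60 and 5 of 44 siCont cells and in 29 of 50, 19 of 49 and 19 of 45 siRif1 cells. In morulae this was 11.4% (3.79 to 24.6) against 42.2% (27.7 to 57.8), and its shifts were 15.3, 24.96 and 30.3. Gabra6 stood at 22 at the 8-cell stage. All 4 lie in the long late domain from 36.3 Mb.

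The remaining lists were mixed. Of 83 olfactory receptor genes in 43 bins, 51 were below 0 at the 8-cell stage with a median of -4.50; Olfr1375 and Olfr51, in the same bin, stood at -28.8. The 4 imprinted genes were all below 0 at the 8-cell stage by under 5 points, with Zrsr1 at -4.81 and Commd1, its host gene, at -3.51. At the 4-cell stage these neighbours stood at 16.9 and 23.1, where Commd1 was replicated in 25 of 49 cells of siCont and 39 of 50 of siRif1. Of 23 genes longer than 300 kb, 19 were below 0 at the 8-cell stage with a median of -7.22, Ebf1, a B cell transcription factor, at -26.5 and Dnah9 at -23.6.

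Bins were then compared with bins of like gene density elsewhere, density being the number of gene midpoints within 10 bins on either side and the classes 5 equal classes of all used bins. On chromosome 11, 41.3% of bins fell in the densest class. There the 8-cell share was 68.8% in siCont and 45.2% in siRif1, a shift of -17.4 points, against -10.2 for that class on the other 18 autosomes. In the least dense class the shifts were 6.89 and 9.65. Chromosome 11 was lower in all 5 classes at the 8-cell stage, with differences between -7.24 and -2.76 points. These differences restate, class by class, the 8-cell shift on which the chromosome was chosen, and are a description only. At the morula stage the difference lay between -1.26 and -0.0243 points in every class, and at the 4-cell stage chromosome 11 was higher by 3.45 and 1.14 in the 2 least dense classes and lower in the others, with differences between -1.70 and -1.35.

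**Figure D4:**
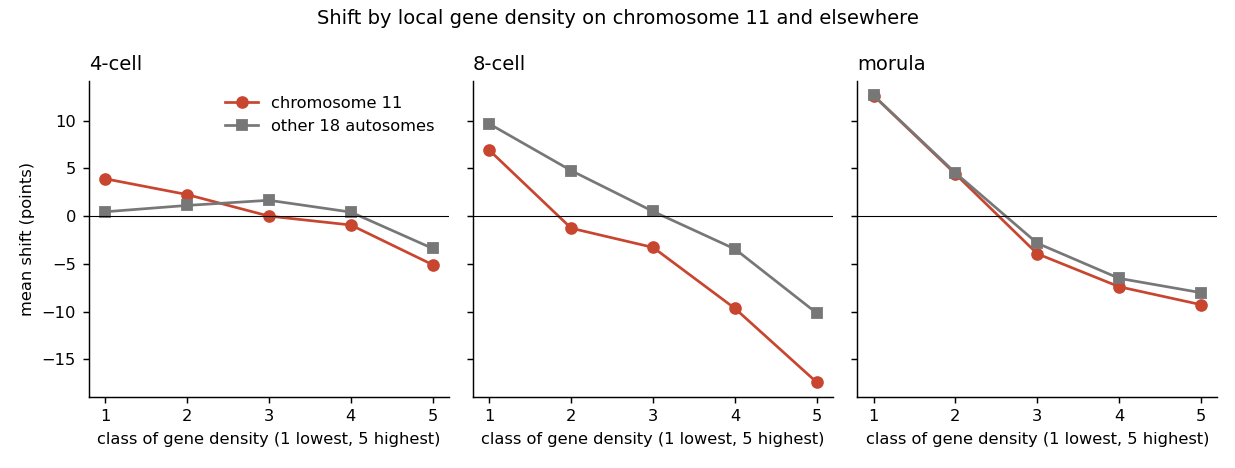
Mean shift (y axis, percentage points) in 5 classes of local gene density (x axis, 1 lowest to 5 highest) on chromosome 11 (red) and the other 18 autosomes (grey). In the 8-cell panel the red points lie below the grey ones, with differences between -7.24 and -2.76 points, and in the morula panel the differences lie between -1.26 and -0.0243 points. The 8-cell panel restates the shift on which the chromosome was chosen.

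Matching on control timing at the other stages gave a related picture at the 8-cell stage, drawn from the same shift on which the chromosome was chosen. In the latest class chromosome 11 was at 15.2 points against 10.5 elsewhere, and in the other 4 classes chromosome 11 minus the other autosomes was between -8.43 and -5.28 points. At the morula stage the difference was under 1 point in every class. Over the bins of chromosome 11 the correlation of gene density with the replicated share was 0.380, 0.467 and 0.534 in siCont and 0.181, 0.0321 and 0.473 in siRif1, so the relation of share to gene density was near 0 in the siRif1 8-cell group. The other autosomes had 8-cell medians of 0.465 with siCont (range 0.183 to 0.6705) and 0.262 with siRif1 (range -0.193 to 0.393). Chromosome 11 thus lay inside both ranges.

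In single cells the lead of chromosome 11 was read as its percent replicated minus that of the other 18 autosomes of the same cell. It averaged 8.16 ± 10.9 points (SD, n = 49 cells), 9.71 ± 11.04 (n = 60) and 11.4 ± 12.3 (n = 44) in siCont, and 5.83 ± 11.5 (n = 50), 1.08 ± 10.4 (n = 49) and 7.87 ± 14.8 (n = 45) in siRif1. Chromosome 11 was ahead in 37 of 49, 48 of 60 and 38 of 44 siCont cells and in 32 of 50, 23 of 49 and 34 of 45 siRif1 cells. The 8-cell counts are 80% and 46.9%; they restate, cell by cell, the 8-cell shift on which the chromosome was chosen. The SD over cells exceeds the difference of the means in each pair of groups.

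**Figure D5:**
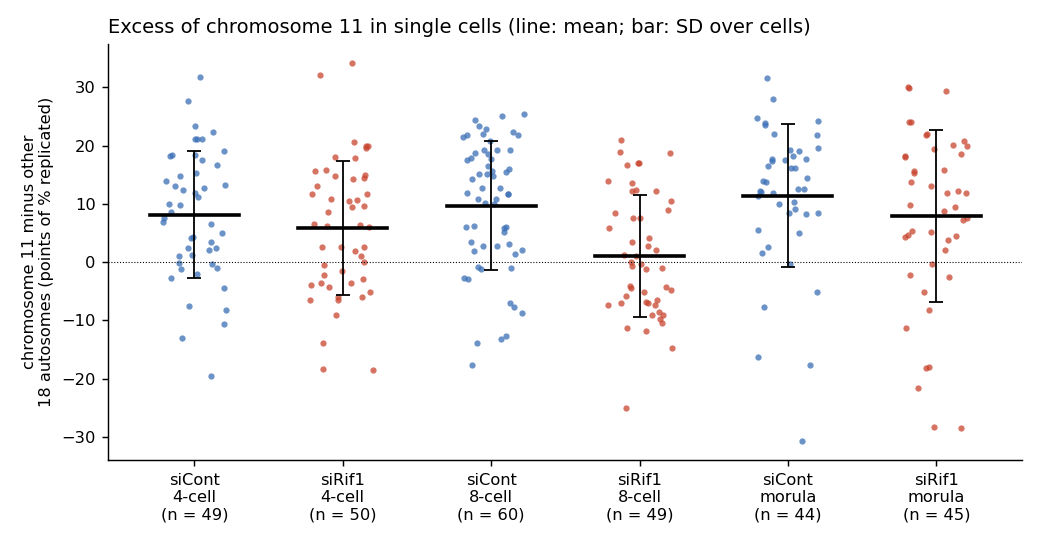
Percent replicated of chromosome 11 minus that of the other 18 autosomes (y axis, points) in each cell (1 point per cell) of the 6 groups (x axis); black lines are means and bars are SD over cells. The siRif1 8-cell cells centre near 0 (mean 1.08), and the other 5 groups have means of 5.83 to 11.4.

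Split over S phase, the 8-cell difference on which the chromosome was chosen was present in each class where both groups had cells. In cells with 0 to 25% of the other autosomes replicated, the lead was 11.3 ± 9.23 points in 6 siCont cells and 2.36 ± 13.4 in 6 siRif1 cells. No siRif1 cell lay at 75 to 100%. In cells with 25 to 50% of the other autosomes replicated, the lead was 9.23 ± 11.4 points in 28 siCont cells and -0.412 ± 11.2 in 28 siRif1 cells. In cells with 50 to 75% replicated it was 10.6 ± 11.9 (n = 23) and 3.37 ± 7.52 (n = 15). In the class from 25 to 50%, early domains were 60.8% replicated in siCont and 43.4% in siRif1, and late domains 26.4 and 27.4%. The comparison within this class thus had nearly the same late-domain level and a lower early-domain level in siRif1.

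Within cells between 20 and 80% replicated, the gap between bins that are early and late in the controls of the other 2 stages was 19.8 ± 25.2 (n = 38), 32.7 ± 24.6 (n = 54) and 42.2 ± 17.4 points (n = 42) in siCont. In siRif1 it was 13.7 ± 27.6 (n = 47), 16.1 ± 28.6 (n = 46) and 27.3 ± 18.0 (n = 43). Late bins were ahead of early bins in 10, 5 and 0 of these siCont cells and in 14, 14 and 3 of the siRif1 cells. The 4-cell siRif1 mean was the lowest of 19 autosomes (others 14.98 to 23.3). The 8-cell and morula siRif1 means lay inside the range of the others (13.9 to 23.35 and 20.8 to 31.2), as did all siCont means.

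Changes of state along the chromosome were few in every group. In the same cells they numbered 2.11 ± 0.639, 2.10 ± 0.697 and 1.84 ± 0.521 per 100 neighbouring bins in siCont, in each case the lowest of 19 autosomes, and 2.31 ± 0.737, 2.38 ± 0.506 and 2.06 ± 0.590 in siRif1. Median runs of 1 state were 1.20 to 1.55 Mb long. The shortest run was 5 bins in all groups, so structure below 250 kb cannot be read from these states.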

How the data were processed

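Per the labels, single blastomeres were amplified with barcodes, and the authors deposited 1 table per group with a binary replication state (1, 0 or NA) of each cell in 50-kb bins. The build was GRCm38, and tools used were R 4.2.3, bedtools, Bowtie2 2.5.1, Picard and SAMtools, per the submitters' processing notes; how reads became states, and read depth per cell, are not given in the sources used here. The value 1 was read as replicated because on the other 18 autosomes the mean share of 1 was higher in bins with a gene midpoint than without, in each of the 6 groups.

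Of 416 labelled cells, 299 had a column, and all were used. Shares, centred shares, shifts, domains and exact 95% Clopper-Pearson intervals were computed with Python 3.11.15, numpy 2.4.6, pandas 2.3.3 and scipy 1.17.1, over bins with at least 10 cells per group; the scripts were tested on simulated data. Genes came from a RefSeq table of GRCm38.p6 by midpoint, since it gives no strand. The members and lists were chosen with earlier results of these data known. The text names, at each stage, the 3 lowest and 3 highest 1-Mb windows by shift, the 3 longest early and 3 longest late domains, the 2 domains with the largest absolute shift at each stage, and 2 members of each of 17 gene lists. Genes in windows and domains are up to 3 of the longest. Some genes that it selects are not reported here. Alternatives were other sets and weights of cells, centrings, ranks, thresholds and domain lengths; those for lists, windows, domains and the 2 sides were added after seeing the data.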

Additional observations from a re-analysis of the deposited data

Results flagged for a closer look

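Among the named domains, 2 late ones had shifts of at least 10 points with opposite signs at 2 stages. The domain from 44.85 to 45.45 Mb, with no gene midpoint, stood at -19.1 points at the 8-cell stage and 19.4 at the morula stage, a difference of 38.5. Its siCont share was 57.8% at the 8-cell stage, above the 49.2% over all autosomes, so it was not late in those controls. At the morula stage the siCont share was 33.5%. The siRif1 shares were 32.5 and 53.5%. The domain from 81.2 to 82.4 Mb, with Asic2, stood at -12.0 at the 4-cell and 10.3 at the morula stage, a difference of 22.3. Each stage has 1 sample per siRNA, and the difference between stages was not tested.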

How the results depend on the processing

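Of 754 alternative values, 697 stayed within the spread used as a yardstick and 57 moved by more than it. A value that itself lay beyond the yardstick changed sign in 0 of them. A change of sign within the yardstick counts as staying, as for the 4-cell mean shift (-1.44, and 0.534 with cells weighted over S phase classes). Many of the 57 kept their sign, but some did not. With cells weighted over S phase classes the morula median went from -3.39 to 20.1 for the Hoxb cluster and from 3.43 to -18.3 for the Th2 locus. On percentile ranks the control change from 4-cell to morula went from 3.09 to -1.52. The yardstick was the SD over the other 18 autosomes, the SD over cells, 95% counting error for lists, windows, domains and the 2 sides (which is wide), or 1.5 times for counts.

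With cells 20 to 80% replicated, the 4-cell correlation was 0.772, the 4-cell late minus early shift 12.9, and bins past 30 points numbered 1 earlier at the 8-cell stage and 20 later and 6 earlier at the morula stage. With cells weighted over S phase classes, the SD over bins was 14.4 in siRif1 4-cell and 20.8 in siCont 8-cell cells; late minus early was 4.05 at the 4-cell and 12.4 at the morula stage; the morula correlation was 0.748; and bins past 30 points numbered 2 earlier at the 4-cell stage, 233 later at the 8-cell stage, and 98 later and 11 earlier at the morula stage. Those weights rest on classes as small as 1 siCont and 2 siRif1 cells at the morula stage. They also gave medians of 20.1 for the Hoxb cluster and -18.3 for the Th2 locus there. No share of all used bins is given for the counts of bins past 30 points under these alternatives.

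On percentile ranks, centred shares were 14.5 and 12.9 (siCont and siRif1 4-cell), 13.4 (siCont 8-cell) and 12.4 (siRif1 morula); SDs over bins were 28.1, 27, 27.9, 27.01, 28.9 and 27.8 in siCont and siRif1 at the 3 stages in turn; mean shifts were -11.6 at the 8-cell and -0.546 at the morula stage; late minus early was 20.4 at the 4-cell and 2.32 at the morula stage; control changes were -0.449 from 8-cell to morula and -1.52 from 4-cell to morula; and the type I keratin median was -44.0 at the 8-cell stage.

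At 20 points, 17 bins were later and 16 earlier at the 4-cell stage, 530 and 85 at the 8-cell stage, and 154 and 112 at the morula stage. The share of all used bins at 20 points is not given, so these counts are not read as a result about chromosome 11. Classes from controls of the same stage gave a morula late minus early of 28.98. With domains of at least 20 bins there were 27 in the control map, 23, 25 and 19 in the siCont 4-cell, siCont 8-cell and siRif1 morula maps, and 23 and 32 in the siRif1 4-cell and 8-cell maps. A minimum of 20 cells per bin left the same 2380 bins.

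No paired analysis was possible because replicate numbers only count cells within a group and each group is 1 sample. Depth is unknown, so counting error of 44 to 60 cells per group is the only precision given. The spread between embryos was not measured, and the polarity of the states was inferred.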
